A study of Mus musculus with 14 samples.

Results

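A set of 9 genes of mouse chromosome 9 is described here: Nxpe4, Nxpe2, Gm5617, Plet1os, Plet1, Pts, Dixdc1, Nrg4 and Ppcdc. They were chosen by their read counts, which differed between HCN4F and WT left ventricles, and by their position near Hcn4. They are 9 of the 49315 genes of the count table, and 9 of the 877 genes of chromosome 9 with enough reads for a test. Since the genotype difference chose them, it is given below as a description with no p, and the counts of genes past a threshold in it restate that choice, while the response to surgery and the constancy of the genotype difference across surgery were tested. HCN4F mice carry a knock-in allele of Hcn4, the gene of the pacemaker channel HCN4, in which a tyrosine of the channel is replaced by phenylalanine (Y527F, in exon 4). WT mice carry the unmodified gene. Male mice aged 10 to 12 weeks underwent transverse aortic constriction (TAC), which narrows the aorta and loads the left ventricle with pressure, or a Sham operation, and polyA-selected RNA of the left ventricle was sequenced 5 weeks later. The groups held n = 4 libraries for WT-Sham, HCN4F-Sham and HCN4F-TAC and n = 2 for WT-TAC (replicates 2 and 3), and the other WT-TAC libraries of the 16 described by the study were not analysed here. Whether HCN4F carriers were homozygous, in which strain the allele was made and how the WT mice were bred are not given in the sources used here.

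Genes that lie close together on a chromosome tend to be inherited together, so a targeted allele is passed on with the alleles of the genes around it. In a comparison of knock-in with WT mice, a consequence of the substitution and a difference carried by the neighbouring chromosome segment are therefore both contained in the genotype difference, and they cannot be told apart in this design. The 9 genes have varied roles. Nxpe2 and Nxpe4 belong to the neurexophilin and PC-esterase domain family. Plet1 encodes a GPI-anchored surface protein of epithelial progenitor cells, and Plet1os is a noncoding RNA transcribed from the opposite strand of the same locus. Pts encodes 6-pyruvoyltetrahydropterin synthase, an enzyme of the synthesis of tetrahydrobiopterin, the cofactor of nitric oxide synthases and aromatic amino acid hydroxylases. Dixdc1 encodes a DIX domain protein that acts with Dishevelled in Wnt signalling. Nrg4 encodes neuregulin 4, a ligand of the receptor ErbB4. Ppcdc encodes phosphopantothenoylcysteine decarboxylase, an enzyme of coenzyme A synthesis. Gm5617 is a predicted protein-coding gene.

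On assembly GRCm38, with the gene models of GENCODE, all 9 genes lie on the same side of Hcn4, which spans chr9:58823412-58863175 on the plus strand. The most distant is Nxpe4 (chr9:48162023-48400025, plus strand), whose annotated start is 10.7 Mb from that of Hcn4. Nxpe2 (chr9:48318006-48353454, minus strand) lies within the span of Nxpe4 on the opposite strand, but the annotated exons of the pair share 0 bases. Gm5617 (chr9:48495442-48495972, plus strand) follows 10.3 Mb from Hcn4 and consists of 1 exon of 531 bases. Plet1os (chr9:50488795-50507823, minus strand), Plet1 (chr9:50494525-50505482, plus strand), Pts (chr9:50521617-50528724, minus strand) and Dixdc1 (chr9:50662752-50739517, minus strand) form a group 8.33 to 8.08 Mb from Hcn4. The exons of Plet1 and Plet1os overlap over 261 bases, which is 13.4% of the exonic length of Plet1 and 21.0% of that of Plet1os, and the use of strand in counting is not given in the sources used here. Without strand, reads from these bases could not be assigned to either gene. Nrg4 (chr9:55220222-55326844, minus strand) lies 3.50 Mb and Ppcdc (chr9:57385095-57440124, minus strand) 1.38 Mb from Hcn4. For Nrg4, 6.06% of the exonic length is shared with its neighbour Fbxo22. The starts of the first and the last gene are 9.28 Mb apart, and this stretch holds 87 tested genes, 9 of them the genes described.

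The annotated starts of 3 of the genes face the start of a gene on the opposite strand within 1 kb. By GENCODE, Gm5617 starts 143 bases from Rbm7, Nrg4 starts 69 bases from Tmem266 and Pts starts 43 bases from the antisense RNA Gm47077. The sequence between such starts is shown for the pairs for which the RefSeq table of GRCm38.p6 holds it, because the partners lie so close and only 1 of each pair differed between genotypes or was expressed. For Rbm7 and Gm5617 it is given up to the RefSeq start of Gm5617. The 250 bases before the RefSeq start of Nxpe4 and of Plet1 are shown because these protein-coding genes had the largest differences between the Sham groups. Capitals mark matches to the motifs searched on both strands, which were the TATA box as TATAAA, the CCAAT box, the GC box as GGGCGG, the E-box as CACGTG, the cyclic AMP response element as TGACGTCA, the TEAD motif as CATTCC and the AP-1 motif as TGACTCA, and sequences run 5′ to 3′ on the plus strand.
Between Rbm7 and Gm5617, chr9:48495300-48495342: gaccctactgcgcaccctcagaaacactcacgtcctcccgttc
Between Pts and Gm47077, chr9:50528725-50528766: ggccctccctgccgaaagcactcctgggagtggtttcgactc
Before Nxpe4, chr9:48361791-48362040: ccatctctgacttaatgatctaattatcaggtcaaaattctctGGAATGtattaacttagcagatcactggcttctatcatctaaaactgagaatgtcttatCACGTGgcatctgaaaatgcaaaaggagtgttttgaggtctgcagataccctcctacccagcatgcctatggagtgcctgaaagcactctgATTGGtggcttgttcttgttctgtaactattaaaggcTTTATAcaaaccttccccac
Before Plet1, chr9:50494275-50494524: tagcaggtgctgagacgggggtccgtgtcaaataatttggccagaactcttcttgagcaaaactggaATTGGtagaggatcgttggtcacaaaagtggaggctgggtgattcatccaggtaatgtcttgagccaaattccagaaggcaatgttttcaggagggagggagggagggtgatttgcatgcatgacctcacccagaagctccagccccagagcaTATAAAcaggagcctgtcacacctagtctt

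Over the windows of 250 bases before to 50 bases after the RefSeq starts, which the table gives for all 9 genes (10 windows, since Dixdc1 has 2), TATAAA was found in those of Nxpe4 and Plet1 and CCAAT in 5 windows. GGGCGG was found in the windows of Gm5617, Pts and Ppcdc. Of all 32851 mouse windows of this length, 13.6% hold TATAAA, 37.4% CCAAT and 35.7% GGGCGG. A match to CACGTG was found for Nxpe4 (7.15% of all windows) and CATTCC for Nxpe4 and Plet1os (14.7% of all windows). TGACGTCA and TGACTCA, held by 1.79% and 5.20% of all windows, were found in 0 of the 10. Base composition differed widely among the genes. The windows of Gm5617 and Pts held 30 and 25 CpG and were 67.0% and 62.7% G and C, against a median of 7 CpG and 52.7% over all windows. The windows of Nxpe4 and Plet1os held 1 and 2 CpG and were 42.3% and 45.7% G and C. Only for Plet1 do the RefSeq and GENCODE starts coincide. The RefSeq start lies before the GENCODE gene for Gm5617 and inside it for Nxpe4, Nxpe2, Plet1os, Pts, Dixdc1, Nrg4 and Ppcdc. The window of Nrg4 (chr9:55283576-55283875) lies far inside the gene, so only the GENCODE start faces that of Tmem266. The window of Nxpe4 (chr9:48361791-48362090) lies past the GENCODE end of Nxpe2, so Nxpe2 lies within Nxpe4 only by the GENCODE span.

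Total counts on genes ran from 22309914 to 35210939 across the libraries. Levels are given as CPM, the read count per unit of library size after edgeR's TMM scaling, and 0 reads allow up to 3 reads or 0.0859 to 0.137 CPM (counting error alone). The 8 cardiomyocyte markers were all present, and their summed level was 72240 to 74809 CPM in WT-Sham, 64150 to 68514 CPM in HCN4F-Sham, 67036 to 67312 CPM in WT-TAC and 54222 to 61082 CPM in HCN4F-TAC. The sums were thus lower in HCN4F after both operations, 0 of the 8 genes passed an adjusted p of 0.05 between genotypes, and the part of this in the differences of the 9 genes was not tested. Summed atrial markers (Myl7, Myl4, Sln, Nppa, Bmp10 and Stard10) were 429 to 1874 CPM in HCN4F-TAC, highest in replicate 2, against 211 to 267 CPM in WT-TAC, 96.5 to 167 CPM in HCN4F-Sham and 106 to 209 CPM in WT-Sham. Other summed markers that did not overlap between genotypes were, after Sham, those of B and plasma cells (2.03 to 3.84 CPM in WT, 4.80 to 14.7 CPM in HCN4F) and neutrophils (0.535 to 1.23 and 1.78 to 2.45 CPM). After TAC they were those of fibroblasts (553 to 652 CPM in WT, 714 to 1151 CPM in HCN4F) and epithelial cells (0.401 to 0.452 and 0.671 to 1.55 CPM). None of the marker genes passed an adjusted p of 0.05 between genotypes, and the part of these sums in the differences of the 9 genes was not tested. Hcn4 itself, the targeted gene, was read at 9.45 ± 1.07 CPM in WT-Sham (SD, n = 4) against 9.07 ± 2.87 CPM in HCN4F-Sham (SD, n = 4). After TAC it was 12.7 ± 1.12 CPM in WT (SD, n = 2) against 6.72 ± 2.54 CPM in HCN4F (SD, n = 4). The log2 difference of Hcn4 between genotypes was -0.06 after Sham and -0.92 after TAC, which did not pass the test (edgeR quasi-likelihood test, adjusted p = 0.934 and 0.238). A substitution need not alter the read count of its gene, so these values do not check the labels. In bulk tissue, fewer cells of a type and less RNA per cell cannot be told apart.

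**Figure D1:**
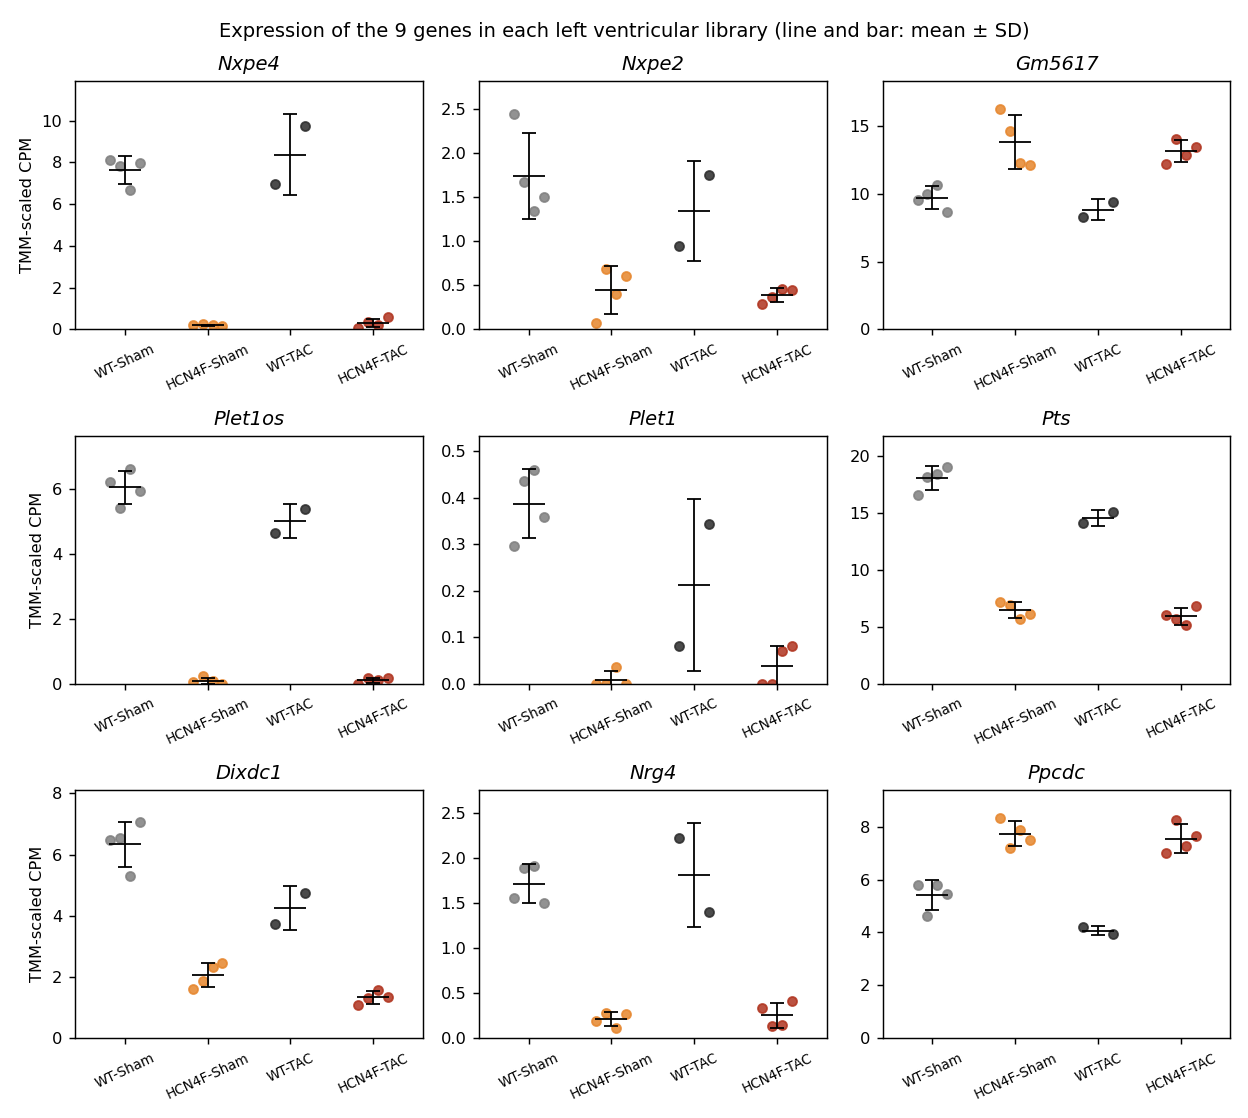
Level of each of the 9 genes in TMM-scaled CPM (linear axis from 0, its range set for each gene) in the 14 libraries, with 1 point per library and the mean ± SD per group. In HCN4F, 7 genes were lower in every library than in every WT library of the same surgery, and Gm5617 and Ppcdc were higher.

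The lowest levels in HCN4F, relative to WT, were those of Plet1os. In WT-Sham, Plet1os was at 6.21, 5.40, 6.61 and 5.95 CPM, and in HCN4F-Sham at 0.0376, 0.228, 0.0723 and 0 CPM. In WT-TAC it was at 4.64 and 5.38 CPM, and in HCN4F-TAC at 0, 0.165, 0.106 and 0.163 CPM. Every WT library held over 100 reads of this antisense RNA, and every HCN4F library held 5 or fewer. Its log2 difference between HCN4F and WT was -6.27 ± 0.38 (SE) after Sham and -5.44 ± 0.40 after TAC. Here and below, SE is the absolute log2 difference over the square root of the F statistic of edgeR's test. The 95% intervals of log2 differences rest on this SE, which for genes with few reads can be smaller than counting error alone. Without HCN4F-Sham replicate 2, which held 5 of the 8 reads of its group, the Sham difference was -7.28. Summed over the libraries of a group, HCN4F-Sham held 8 reads against 672 in WT-Sham, and per unit of depth WT-Sham was 82.4 times higher (95% interval from the counts alone, 41.6 to 192).

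Plet1, on the other strand of this locus, was close to the limit of detection in both genotypes. WT-Sham libraries held 8, 12, 12 and 11 reads of Plet1 and HCN4F-Sham libraries 0, 0, 1 and 0 reads. WT-TAC libraries held 2 and 12 reads and HCN4F-TAC libraries 0, 0, 2 and 2 reads. After TAC the groups therefore met, since replicate 2 of WT-TAC held no more reads than replicates 3 and 4 of HCN4F-TAC and lay above them only per unit of depth (0.0822 against 0.0706 and 0.0814 CPM). The ratio of WT to HCN4F was 42.2 after Sham (95% counting interval 7.18 to 1704) and 6.34 after TAC (1.99 to 26.4). The fitted log2 difference of Plet1 was -4.84 ± 0.82 (SE) after Sham and -2.48 ± 0.82 after TAC. It was -6.44 after Sham without HCN4F-Sham replicate 3, which held the 1 read of its group (a fitted value that then depends on the prior count and is no bound), and -1.05 after TAC without WT-TAC replicate 3. In the WT-Sham libraries, Plet1 had 4.76% to 8.05% as many reads as Plet1os. The exons of the pair overlap and the use of strand is not given. Whether the difference of Plet1 is separate from that of Plet1os was therefore not tested.

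Nxpe4 showed the same pattern at the far end of the stretch. Its levels were 8.13, 7.83, 6.65 and 7.97 CPM in WT-Sham and 0.188, 0.228, 0.181 and 0.151 CPM in HCN4F-Sham, where each library held 5 reads. They were 6.98 and 9.73 CPM in WT-TAC and 0.0829, 0.329, 0.212 and 0.569 CPM in HCN4F-TAC. The highest HCN4F library, at 0.569 CPM, stood far below the lowest WT library, at 6.65 CPM. The log2 difference was -5.35 ± 0.28 (SE) after Sham and -4.79 ± 0.28 after TAC, so that HCN4F held 2.46% and 3.60% of the WT level. Nxpe2, which lies within the GENCODE span of Nxpe4, was at 1.34 to 2.44 CPM in WT-Sham and at 0.0753 to 0.685 CPM in HCN4F-Sham. It was at 0.945 and 1.75 CPM in WT-TAC and at 0.290 to 0.459 CPM in HCN4F-TAC. The log2 difference of Nxpe2 was smaller than that of Nxpe4, at -1.97 ± 0.37 (SE) after Sham and -1.80 ± 0.44 after TAC, and its groups did not overlap after either operation. The tested members of the same family on other loci, Nxpe3 and Nxpe5, had log2 differences after Sham of 0.31 and -0.03 that did not pass the test (adjusted p = 0.652 and 0.983). After TAC they had 0.82 and 0.50, which did not pass either (adjusted p = 0.390 and 0.789).

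Pts, which encodes the tetrahydrobiopterin enzyme, was the most abundant of the 9 genes in CPM in the WT groups. It was read at 16.6, 18.2, 18.5 and 19.0 CPM in WT-Sham and at 7.19, 6.94, 5.68 and 6.10 CPM in HCN4F-Sham. In WT-TAC it was at 14.1 and 15.1 CPM, and in HCN4F-TAC at 6.05, 5.66, 5.12 and 6.83 CPM. The HCN4F level was 35.8% of WT after Sham and 40.5% after TAC, with log2 differences of -1.48 ± 0.10 (SE) and -1.30 ± 0.12. The SD between replicates was 5.90% of the mean in WT-Sham and 10.9% in HCN4F-Sham.

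Dixdc1, the DIX domain gene of Wnt signalling, differed by a similar factor. It was at 6.47, 6.53, 5.31 and 7.06 CPM in WT-Sham and at 1.62, 1.87, 2.31 and 2.45 CPM in HCN4F-Sham. It was at 3.74 and 4.75 CPM in WT-TAC and at 1.08, 1.32, 1.59 and 1.34 CPM in HCN4F-TAC. All 4 groups were separate, with WT-Sham highest and HCN4F-TAC lowest. The log2 difference between genotypes was -1.61 ± 0.16 (SE) after Sham and -1.67 ± 0.20 after TAC.

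Nrg4, the ErbB4 ligand, was read at 1.55, 1.89, 1.91 and 1.50 CPM in WT-Sham and at 0.188, 0.274, 0.108 and 0.272 CPM in HCN4F-Sham. It was at 2.22 and 1.40 CPM in WT-TAC and at 0.332, 0.132, 0.141 and 0.407 CPM in HCN4F-TAC. No HCN4F library held more than 10 reads of Nrg4, and no WT library fewer than 42. The log2 difference was -2.997 ± 0.33 (SE) after Sham and -2.85 ± 0.36 after TAC. Tmem266, whose GENCODE start is 69 bases from that of Nrg4, had a log2 difference of -0.09 after Sham (adjusted p = 0.817) and -0.36 after TAC (adjusted p = 0.477). Fbxo22, which shares exonic bases with Nrg4, differed by -0.03 (adjusted p = 0.871) and -0.04 (adjusted p = 0.903).

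Ppcdc and Gm5617 differed in the other direction. Ppcdc, the coenzyme A enzyme and the gene nearest to Hcn4, was at 5.80, 4.61, 5.81 and 5.46 CPM in WT-Sham and at 8.32, 7.21, 7.88 and 7.52 CPM in HCN4F-Sham. It was at 4.19 and 3.95 CPM in WT-TAC and at 7.01, 8.26, 7.28 and 7.65 CPM in HCN4F-TAC. HCN4F thus held 143% of the WT level after Sham and 186% after TAC, with log2 differences of 0.51 ± 0.10 (SE) and 0.89 ± 0.13. Gm5617 was at 9.57, 9.98, 10.7 and 8.69 CPM in WT-Sham and at 16.3, 14.7, 12.3 and 12.1 CPM in HCN4F-Sham. It was at 8.30 and 9.39 CPM in WT-TAC and at 12.2, 14.1, 12.9 and 13.5 CPM in HCN4F-TAC. Its log2 difference was 0.51 ± 0.11 (SE) after Sham and 0.57 ± 0.13 after TAC. Rbm7, across the stretch of bases shown above, was at 13.1 ± 0.426 CPM in WT-Sham (SD, n = 4) against 12.8 ± 1.45 CPM in HCN4F-Sham (SD, n = 4), a log2 difference of -0.03 (adjusted p = 0.917).

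**Figure D2:**
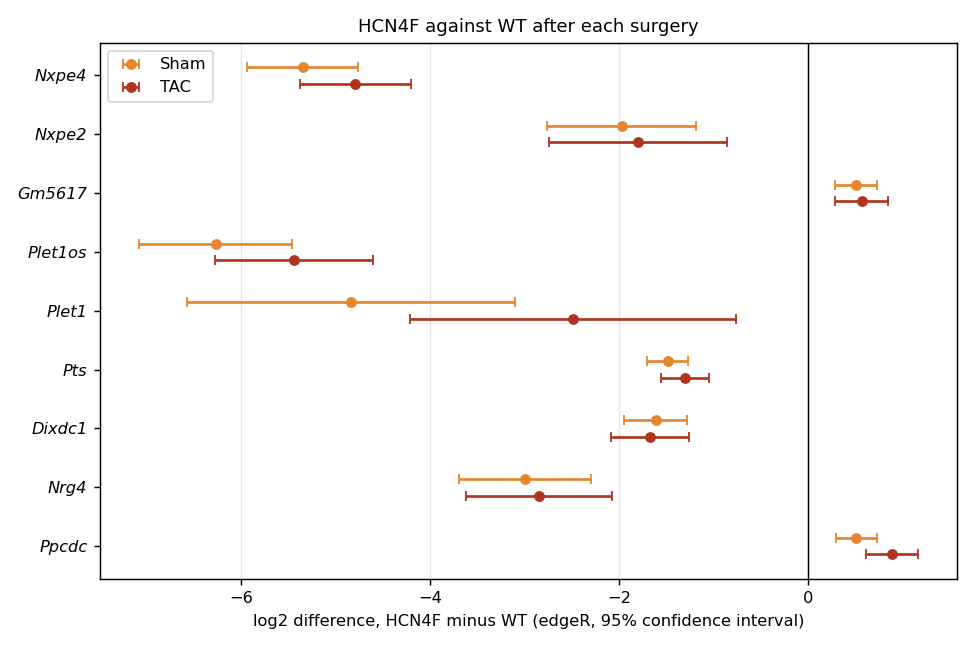
Log2 difference between HCN4F and WT for each of the 9 genes after Sham and after TAC, from edgeR with 95% confidence intervals. The values of 7 genes lie to the left of 0 and 2 to the right after both operations. The intervals of the operations overlap for each gene, which does not test whether the difference was the same after both.

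In all, 7 of the 9 genes were lower and 2 higher in HCN4F after both operations. The median log2 difference of the 9 was -1.97 after Sham and -1.80 after TAC, against a median of 0.00 over all 15292 tested genes in both. At an adjusted p under 0.05 with a log2 difference beyond 1, 7 of the 9 were called after Sham, where 0.209% of all tested genes were, and 5 after TAC (Nxpe4, Plet1os, Pts, Dixdc1 and Nrg4), where 0.0719% were. At an adjusted p under 0.05 alone, 9 passed after Sham (0.471% of all tested genes) and 6 after TAC (0.111%). The calls over all genes at both thresholds, 32 after Sham and 11 after TAC, were 74 and 87 in DESeq2. Leaving out 1 library gave 11 (without WT-Sham replicate 2) to 92 (without HCN4F-Sham replicate 1) after Sham and 6 (without WT-TAC replicate 2) to 158 (without HCN4F-TAC replicate 3) after TAC. The libraries of the genotypes did not overlap for 9 of 9 genes after either operation, against 8.56% of all tested genes after Sham and 22.2% after TAC, where WT has 2 libraries. For Plet1 after TAC this rests on the depth of libraries with 2 reads each. Since these comparisons chose the genes, nothing is read from the counts. All 9 passed the filter on low counts, but only 5 of them (Nxpe2, Gm5617, Pts, Dixdc1 and Ppcdc) reached 10 reads per library of median size in 2 or more of the 8 HCN4F libraries. The other 4 entered the test through their WT libraries. Plet1 was the gene nearest to that limit, which it reached in 2 of the 6 WT libraries. Without HCN4F-TAC replicate 2, the library with the highest atrial marker sum, the log2 differences after TAC were -5.73 for Plet1os, -4.87 for Nxpe4, -2.63 for Nrg4, -1.68 for Dixdc1, -1.30 for Pts and 0.83 for Ppcdc.

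The levels of the 9 genes can be compared with each other per kilobase of annotated exon. In WT-Sham, Gm5617 was highest at 18.3 CPM per kb ± 1.55 (SD, n = 4), followed by Plet1os at 4.85 ± 0.407, Pts at 2.96 ± 0.175, Nxpe4 at 1.29 ± 0.114 and Ppcdc at 0.934 ± 0.0976. Dixdc1 (0.636 ± 0.0736 CPM per kb) and Nxpe2 (0.424 ± 0.119) came next and overlapped, and Nrg4 (0.282 ± 0.0355) and Plet1 (0.199 ± 0.0382) were lowest. In HCN4F-Sham, Gm5617 stayed highest at 26.0 CPM per kb ± 3.76 (SD, n = 4), while Ppcdc came next at 1.33 ± 0.0822 and then Pts at 1.06 ± 0.116. Plet1os, next to the top in WT-Sham, was at rank 6 in HCN4F-Sham at 0.0679 CPM per kb ± 0.0805 (SD, n = 4). There, Dixdc1, Nxpe2, Plet1os and Nrg4 each overlapped the next gene in the order, and Nxpe4 lay above Plet1.

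The genes between and beside the 9 were then examined for the same contrast. Since the 9 were chosen by this contrast and by their position, the counts of called genes, by chromosome and by step, are a description and nothing is read from them. The same holds for the genes left over, since a gene near Hcn4 that passed could have been chosen. Of the 877 tested genes of chromosome 9, 7 were called after Sham (0.798%) and 5 after TAC (0.570%), and all of these were among the 9. The 19 other chromosomes with at least 405 tested genes held 0 to 3 called genes each after Sham (at most 0.517% of a chromosome's genes) and at most 1 after TAC. In the stretch from the first to the last of the 9 genes, the other 78 tested genes had a median log2 difference of 0.03 after Sham and -0.01 after TAC. In edgeR's fit to all 14 libraries none of them was called, and 1 passed the adjusted p alone after Sham. On the far side of Hcn4, 93 tested genes within 12 Mb also held no gene called in that fit. In steps of 10 Mb along the chromosome, called genes lay only between 40 and 50 Mb (2 of 86 tested genes after Sham, 1 after TAC) and between 50 and 60 Mb (5 of 112 after Sham, 4 after TAC). The choice of settings mattered for these calls. After Sham, AI593442, 6.14 Mb from Hcn4 and inside the stretch (log2 difference 2.04, adjusted p = 0.0542), and Nnmt, a neighbour of Gm5617, were called by DESeq2 and without HCN4F-Sham replicate 1 or 3. AI593442 was also called without HCN4F-Sham replicate 4, at a mean CPM of at least 1 and with non-robust estimation, and Nnmt without HCN4F-TAC replicate 3 and with no filter. After TAC, DESeq2 called 17 genes of chromosome 9, of which 6 were among the 9, and leaving out replicate 3 of HCN4F-TAC also gave 17, of which 6 were among the 9. Both settings called Itga11 and Cilp, which lie 3.85 and 6.44 Mb beyond Hcn4 (edgeR log2 differences after TAC 1.11 and 1.99), and Pstpip1, inside the stretch (1.42). These genes are named after their values were seen.

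**Figure D3:**
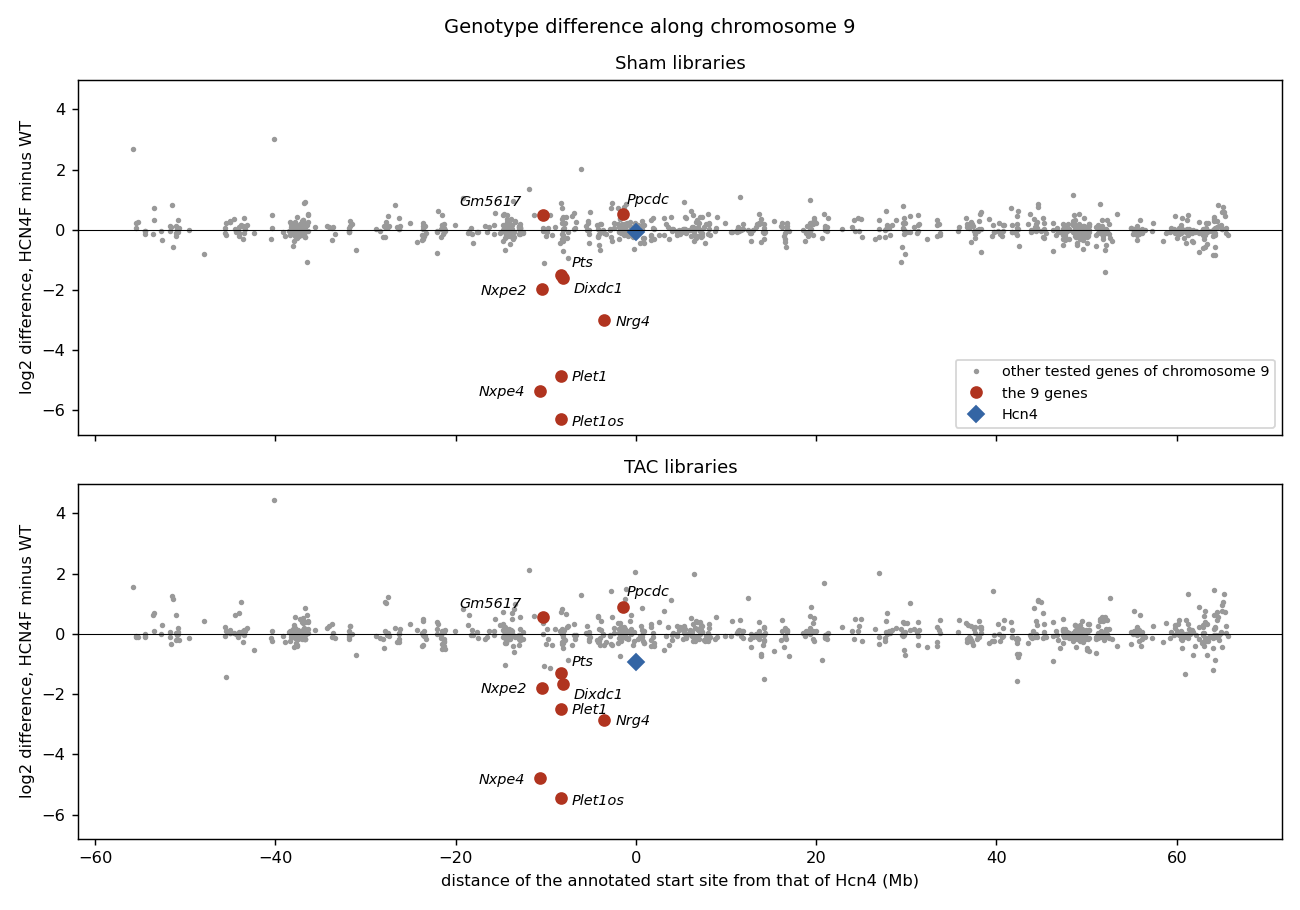
Log2 difference between HCN4F and WT (edgeR) after Sham (top) and TAC (bottom) for the 877 tested genes of chromosome 9, against the distance of the annotated start from that of Hcn4 in Mb. The 9 genes are red, Hcn4 is blue and other genes are grey. The 7 lower genes lie between 10.7 and 3.50 Mb from Hcn4, on 1 side of it.

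The nearest tested genes on either side of the 9 were 12 in number. Their median log2 difference was 0.02 after Sham and 0.03 after TAC, and 0 of the 12 passed an adjusted p of 0.05 in either comparison, which the choice of the 9 largely fixes. The largest was that of Nnmt, the nicotinamide N-methyltransferase gene, 110 kb from Gm5617. Nnmt, which DESeq2 called in both comparisons, was at 1.64 to 2.14 CPM in WT-Sham and 0.513 to 1.34 CPM in HCN4F-Sham, with a log2 difference of -1.11 ± 0.25 (SE) after Sham (adjusted p = 0.0597) and -1.06 ± 0.28 after TAC (adjusted p = 0.137). Dlat, which encodes a subunit of pyruvate dehydrogenase, starts 79.7 kb from Dixdc1 and differed by -0.15 after Sham (adjusted p = 0.470). Il18, 26.1 kb from Pts, was near the limit of detection at 0.153 CPM in WT-Sham and 0.291 CPM in HCN4F-Sham. Scamp5, 27.9 kb from Ppcdc, differed by 0.07 (adjusted p = 0.825). On chromosome 9, 5 genes outside the 9 passed an adjusted p of 0.05 after Sham alone, and they are named after their values were seen: Cryab, Foxred1, Hspa8 and Pkm were lower in HCN4F and Oaf was higher. Cryab, the small heat shock protein alpha B-crystallin, starts 8.07 Mb from Hcn4, close to Dixdc1. It was at 1345 to 1476 CPM in WT-Sham and 798 to 957 CPM in HCN4F-Sham, a log2 difference of -0.70 after Sham (adjusted p = 2.33e-04) and -0.27 after TAC (adjusted p = 0.254). The differences of Gm5617 and Ppcdc, the smallest among the 9, were thus smaller after Sham than those of Nnmt and Cryab, which are not among them.

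Whether the genotype difference was the same after both operations was tested with the genotype by surgery interaction, the TAC response in HCN4F minus that in WT. None of the 9 genes passed an adjusted p of 0.05 in edgeR, nor in DESeq2, and Ppcdc alone had an unadjusted p under 0.05 in edgeR. Over all tested genes 0% passed in edgeR, with 1418 at an unadjusted p under 0.05, and 32 genes passed in DESeq2. In edgeR, 17 passed with no filter and 78 without HCN4F-TAC replicate 3, and 0 of the 9 were among the genes that passed in any of these. Genes whose difference turned round between operations could hardly have been chosen, so this is not independent of the choice. The interaction was above 0 for 8 of the 9 genes and below 0 for 1. Its median was 0.18, against 0.01 over all tested genes, and 8 of the 9 intervals held 0. How closely the differences held depended on the gene. The narrowest intervals were those of Pts, with an interaction of 0.18 on the log2 scale (95% interval -0.16 to 0.52, adjusted p = 0.760), and Ppcdc, with 0.38 (0.03 to 0.73, adjusted p = 0.496 and unadjusted p = 0.0333 in edgeR's fit across all genes). Ppcdc, Pts and Plet1os were each lower in both WT-TAC libraries than in all WT-Sham libraries, while their HCN4F groups overlapped. The share of such genes over all tested genes was not counted. Gm5617 had an interaction of 0.06 (-0.29 to 0.41, adjusted p = 0.940) and Dixdc1 of -0.06 (-0.59 to 0.47, adjusted p = 0.965). For the genes with few reads in HCN4F the intervals were wide. They ran from -0.47 to 1.57 for Nxpe4, from -1.10 to 1.45 for Nxpe2, from -0.96 to 1.26 for Nrg4, from -0.83 to 2.49 for Plet1os and from -0.64 to 5.34 for Plet1. A change of the difference by a factor of 2 between operations was thus within the interval for these 5 genes and not for the other 4.

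The response to TAC itself was tested within each genotype. In WT, 0 of the 9 passed an adjusted p of 0.05, against 4.54% of all tested genes, and in HCN4F 1 of the 9 passed, against 13.6%. Nxpe4, Plet1os, Plet1 and Nrg4 had too few HCN4F reads to count in the latter, so that 5 of the 9 could be judged there. The 1 gene was Dixdc1, whose HCN4F-TAC libraries all lay below the HCN4F-Sham libraries (1.08 to 1.59 against 1.62 to 2.45 CPM), a log2 change of -0.63 ± 0.18 (SE, adjusted p = 0.0259). In WT the log2 change of Dixdc1 was -0.57 ± 0.18 (adjusted p = 0.0819). TAC and Sham libraries did not overlap for Dixdc1 in either genotype, nor in WT for Plet1os, Pts and Ppcdc. The share over all tested genes was not counted, so nothing is read from this. With replicates left out, the change of Dixdc1 in HCN4F stayed between -0.73 and -0.53. The call in HCN4F was lost without HCN4F-Sham replicate 3 or 4 and without HCN4F-TAC replicate 1, 2 or 4 (adjusted p between 0.0554 and 0.0845). HCN4F-TAC replicate 2, 1 of these libraries, is the library with the highest atrial marker sum. In the fit on the compared groups alone, Dixdc1 passed in WT (-0.55, adjusted p = 0.0380) and not in HCN4F (-0.64, adjusted p = 0.0729). Ppcdc had a log2 change of -0.41 ± 0.13 in WT (adjusted p = 0.0791) and -0.03 ± 0.10 in HCN4F (adjusted p = 0.861). Pts had -0.31 ± 0.12 in WT (adjusted p = 0.140) and -0.13 ± 0.11 in HCN4F (adjusted p = 0.454). The median log2 change of the 9 was -0.31 in WT and -0.03 in HCN4F, against -0.02 and -0.01 over all tested genes. The WT-TAC group holds 2 libraries.

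**Figure D4:**
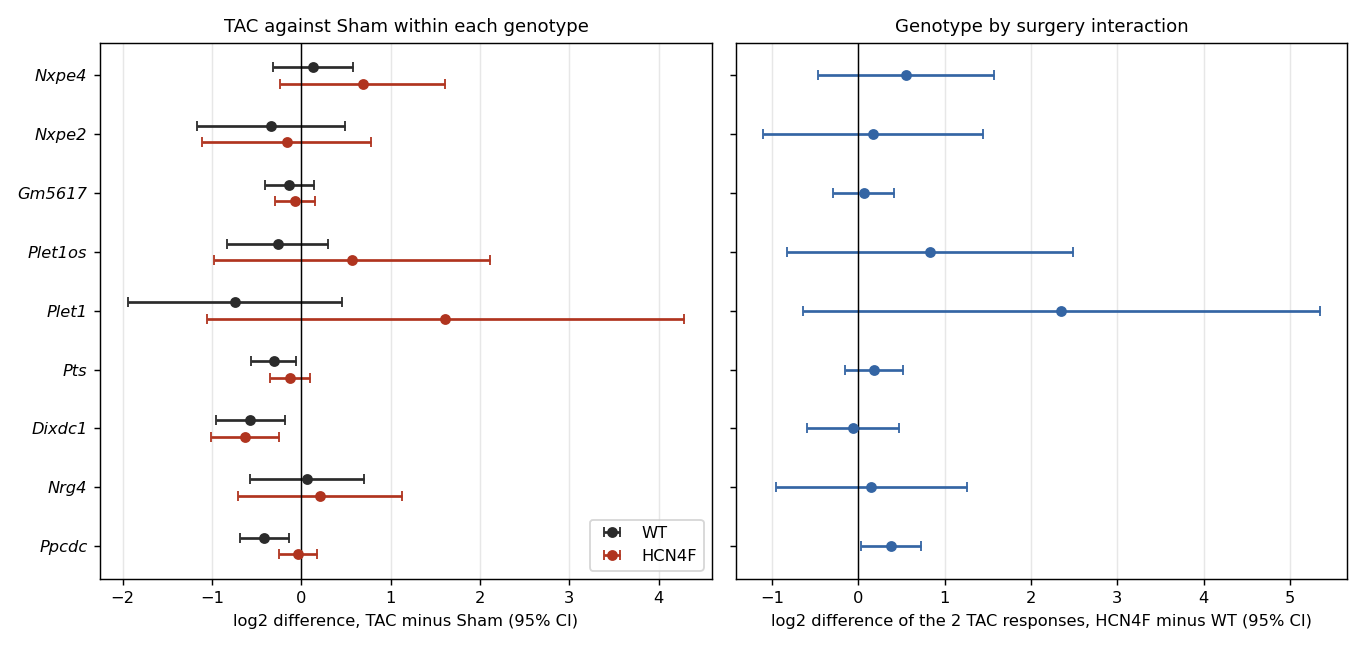
Log2 difference between TAC and Sham in WT and in HCN4F (left) and the genotype by surgery interaction (right) for each of the 9 genes, from edgeR with 95% confidence intervals. Dixdc1 in HCN4F passed an adjusted p of 0.05 at -0.63, and the intervals of Plet1os and Plet1, which had few reads in HCN4F, are the widest.

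Genes that act with the 9 were counted from lists. Of 10 genes of tetrahydrobiopterin synthesis and recycling, all 10 tested, the 9 other than Pts had log2 differences between genotypes of -0.19 to 0.34 after Sham and -0.35 to 1.39 after TAC, and 0 passed the test in either comparison. The upper end after TAC was Pcbd1, of the recycling step (1.39 ± 0.37, adjusted p = 0.139). Gch1, which encodes the first enzyme of the pathway, had a difference of -0.12 ± 0.12 after Sham (adjusted p = 0.662) and 0.13 ± 0.14 after TAC (adjusted p = 0.774). Spr, which encodes the enzyme after Pts, had -0.11 ± 0.09 after Sham (adjusted p = 0.556) and -0.02 ± 0.11 after TAC (adjusted p = 0.968). Of the enzymes that use the cofactor, 4 of 8 were tested and 0 passed, among them the endothelial nitric oxide synthase gene Nos3 with -0.04 ± 0.11 after Sham (adjusted p = 0.885). After TAC in HCN4F, where 13.6% of all tested genes passed in either direction, 4 of the 9 genes of synthesis and recycling other than Pts fell: Gchfr (-0.71, adjusted p = 0.0125), Cbr1 (-0.34, adjusted p = 0.00702), Pcbd2 (-0.27, adjusted p = 0.0266) and Qdpr (-0.23, adjusted p = 0.0206). In WT, where 4.54% of all tested genes passed, 2 of the 9 fell, Cbr1 (-0.41, adjusted p = 0.0270) and Qdpr (-0.31, adjusted p = 0.0313). The median of the 9 was -0.18 in HCN4F and -0.31 in WT, and 0 of the 4 tested enzymes that use the cofactor passed for TAC in either genotype.

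Of 13 genes of coenzyme A synthesis and turnover, 10 were tested, and the 9 other than Ppcdc had genotype differences of -0.27 to 0.34 after Sham and -0.43 to 0.04 after TAC, with 0 passing. After TAC in HCN4F, 3 of the 9 passed, against 13.6% of all tested genes, and in WT 1 of the 9, against 4.54%. In HCN4F, Slc25a42, the mitochondrial coenzyme A carrier, fell by 0.74 on the log2 scale (adjusted p = 3.97e-04), and Slc5a6, a vitamin transporter, and Nudt7, a coenzyme A hydrolase, fell by 0.38 (adjusted p = 0.0328) and 0.33 (adjusted p = 0.0155). In WT, the pantothenate kinase gene Pank3 rose by 0.49 (adjusted p = 0.0245). Of 15 ErbB ligands and receptors, 12 were tested. The 11 other than Nrg4 held 0 genes past the test between genotypes, and Erbb4, the gene of the Nrg4 receptor, differed by 0.39 ± 0.17 after Sham (adjusted p = 0.300) and -0.41 ± 0.21 after TAC (adjusted p = 0.439). The upper end of the genotype differences after TAC was held by the ligand genes Ereg (2.70 ± 0.64, adjusted p = 0.106) and Nrg1 (1.63 ± 0.46, adjusted p = 0.170). In the response to TAC, 2 of the 11 passed in each genotype, against 4.54% of all tested genes in WT and 13.6% in HCN4F. The ligand gene Hbegf rose in WT (1.07, adjusted p = 0.0415) and in HCN4F (1.77, adjusted p = 3.62e-04), Ereg rose in HCN4F (4.63, adjusted p = 2.85e-04) and Nrg2 fell in WT (-1.61, adjusted p = 0.0205).

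Of 17 DIX domain and Wnt genes, 16 were tested, and 0 of the 15 other than Dixdc1 passed between genotypes. Their median difference was 0.10 after Sham and -0.04 after TAC, and the Dishevelled gene Dvl1 differed by -0.04 ± 0.07 after Sham (adjusted p = 0.827). For TAC, 2 of the 15 passed in each genotype, a share in HCN4F no larger than the 13.6% over all tested genes, against 4.54% in WT. Dvl2 (-0.43, adjusted p = 0.0132) and Tcf7l2 (-0.47, adjusted p = 0.00995) fell in HCN4F, and Dvl3 (0.58, adjusted p = 0.0270) and Gsk3b (0.44, adjusted p = 0.0134) rose in WT. Of 6 genes grouped with Plet1 as GPI-anchored or epithelial, 4 were tested and the 3 other than Plet1 held 0 genes past the test in any comparison. In each of these lists 0 genes passed the interaction.

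For each of the 9 genes, the gene outside them with the most similar profile over the 14 libraries was taken by the correlation of log2 CPM. The closest were Uaca for Nxpe2 (Pearson r = 0.94), Mmp15 for Pts (0.94), Ppp6r1 for Plet1os (0.93), Aasdh for Dixdc1 (0.93), Gm10290 for Nxpe4 (0.92) and Nrg4 (0.92), Map7d1 for Plet1 (0.92), Aspscr1 for Gm5617 (0.88) and Fam32a for Ppcdc (0.88). Of these, Uaca lies on chromosome 9, 1.97 Mb beyond Hcn4, and had a log2 difference between genotypes of -0.31 after Sham (adjusted p = 0.148). Mmp15 on chromosome 8 had -0.35 after Sham (adjusted p = 0.0411), and Gm10290 on chromosome 5 had -5.36 after Sham (adjusted p = 0.0618) and -2.52 after TAC (adjusted p = 0.273). The likeness itself used this contrast, so these values are no independent test. Among the 10 most similar genes, 0 to 3 were on chromosome 9, where 5.74% of the tested genes lie. These profiles share the libraries and, for the 9 genes, the step between genotypes. Once the group means were removed, the correlations between the 36 pairs of the 9 genes ranged from -0.52 to 0.73 with a median of 0.15 over the 14 libraries. Nxpe4, Plet1os, Plet1 and Nrg4, which had few reads in HCN4F, are in most of these pairs, and nothing is read from the correlations.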

How the data were processed

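The 9 genes and the gene lists were chosen with earlier results of these data known. The authors deposited raw read counts per gene, and the submitters' processing notes name assembly GRCm38. The aligner, counting program, annotation and use of strand are not given in the sources used here, and the study tested with DESeq2. Groups and replicate numbers came from the sample labels. The table holds 2 further sample columns, whose names carry the WT and TAC labels but match no sample given here, and they were not used.

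Of 49315 genes, 15292 passed edgeR's filterByExpr by group, which asks for about 10 reads per library of median size in at least 2 libraries. Counts were scaled by TMM, and 4 group means were fitted to all 14 libraries with edgeR 4.0.16 (R 4.3.3; robust quasi-likelihood test, Benjamini-Hochberg adjustment over all tested genes). Intervals are 95% confidence limits, exact (Clopper-Pearson) for ratios of summed reads. For log2 differences they are approximate, since their SE was derived from the F statistic of the test. The study calls the replicates biological. Log2 CPM used a prior count of 2. DESeq2 1.42.0, its size factors, other filters and fits, a replicate block and leaving out each replicate were the alternatives. The steps were tested on simulated data. Positions are from GENCODE and promoters from RefSeq (GRCm38.p6). Figures were drawn with matplotlib.

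Named besides the 9 genes were Hcn4, the nearest tested genes, the most similar profiles, members of the lists, and genes said to be named after their values were seen.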

Additional observations from a re-analysis of the deposited data

Results flagged for a closer look

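In HCN4F-Sham, replicate 3 was the only library with a read of Plet1 (1 read, 0.0362 CPM), and its gap to the other 3 libraries, all at 0, equalled the whole range of the group. It was the 1 group so marked among 27 groups of 4 libraries, where chance marks about 1 in 20. A single read is within the limit that a count of 0 allows.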

How the results depend on the processing

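Depth limits the genes with few HCN4F reads, above all Plet1, whose differences rest on 1 to 14 reads per group outside WT-Sham, and the WT-TAC group holds 2 libraries. In the 21 alternative fits, no genotype difference of the 9 that could be fitted changed sign. Plet1, Nxpe2 and Nrg4 were not tested at a mean CPM of at least 1, nor Plet1 without WT-Sham replicate 2 or in the genotype comparisons on the compared groups, and the interaction has no fit on the compared groups alone.

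Fitted on the compared groups, 1 of the 9 passed for TAC in WT and 0 in HCN4F, where only 5 of the 9 were then tested. Leaving out replicates gave 0 to 1 for TAC in HCN4F, 0 in WT and 0 for the interaction. The median genotype difference was -2.21 to -1.63 after Sham and -2.15 to -1.26 after TAC, the last without WT-TAC replicate 3. Chromosome 9 genes called after Sham numbered 14 at an adjusted p alone and 5 to 10 with replicates left out. After TAC they numbered 17 in DESeq2, 14 without a filter, 3 on the compared groups and 4 to 17 with replicates left out. With a replicate block they were 6 and 5, the medians changed by less than the spread between replicates, and 0, 1 and 0 genes passed for TAC in WT, TAC in HCN4F and the interaction. Same-numbered libraries deviated from their group means with correlations of -0.12 to 0.16 over 18 pairs, so the numbers were not taken as paired, and 5 of 14 libraries correlated best with their own number.

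Leaving out replicates turned the sign of responses that had not passed the test. For the response in WT the ranges were -0.13 to 0.35 for Nxpe4, -0.87 to 0.0104 for Nxpe2 and -0.28 to 0.37 for Nrg4. In HCN4F they were -0.51 to 0.0718 for Nxpe2, -0.13 to 0.0184 for Gm5617, -0.11 to 0.44 for Nrg4 and -0.0837 to 0.0024 for Ppcdc. For the interaction they were -0.18 to 0.71 for Nxpe2, -0.0217 to 0.16 for Gm5617, -0.22 to 0.13 for Dixdc1 and -0.17 to 0.50 for Nrg4. The causes were not tested.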
